A study of Drosophila melanogaster with 4 samples.

Results

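The proteasome is the large protease of the cytosol and nucleus that degrades proteins marked with ubiquitin. Its core particle is a barrel of alpha rings, which gate the entry, and beta rings, which hold the proteolytic sites. A regulatory particle caps the barrel, and consists of a base, whose ATPases unfold the substrate, and a lid, which removes the ubiquitin chain. Eggs receive proteasomes and ubiquitin enzymes from the ovary, and in Drosophila the germline nurse cells supply most of the RNA and protein stored in the oocyte. The genes described here are 32 subunit genes of this complex in Drosophila melanogaster, 14 of the core, 10 of the base and 8 of the lid, among 16356 genes to which transcripts were matched. They were chosen by name from the known composition of the particle, with earlier results of these data known. Each was found in the deposited table as RefSeq mRNA rows (56 rows in all), which were summed per gene.

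Poly(A)-enriched RNA was sequenced from ovaries of adult flies, with 2 libraries in which the nuclear pore protein Nup358 was knocked down in the germline (Nup358GLKD) and 2 Control libraries (mat>Luc). Each library was made from 10 to 15 pooled pairs of ovaries, and the sources used here give no strain, age or knockdown construct. The knockdown is by label confined to the germline, whereas whole ovaries also hold follicle cells, muscle sheath and other somatic cells. Fewer cells of a type and less RNA per cell cannot be told apart in such RNA. By label the replicates are biological repeats, with nothing further on their origin, and the p-values below cover the spread between these libraries alone, which may be technical.

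The libraries held between 58876800 and 60792292 expected counts. Nup358 RNA stood at 282.7 and 151.3 CPM (counts scaled to library size) in the Nup358GLKD libraries, against 662.2 and 624.3 CPM in the Control libraries, and the difference just missed the threshold (log2 change −1.57, SE 0.34, adjusted p = 0.0524). It passed with total-count scaling (adjusted p = 0.0418), limma-voom (0.0464), robust=FALSE (0.0484), a replicate block (0.0289) and DESeq2 (0.000171). It missed with RLE scaling (0.0546), upper-quartile scaling (0.0647), legacy=TRUE (0.0531), no filter on low counts (0.0529) and a filter at a mean of 5 CPM (0.0751). With any 1 library left out, its log2 change lay between −2.09 and −1.21. All 8 germline markers were detected, with summed levels of 7717 and 7201 CPM in Nup358GLKD and 4593 and 4643 CPM in Control. The 11 follicle cell markers summed to 15190.5 and 16610 CPM, against 15474 and 14929 CPM. Genes with much RNA weigh most in this sum, such as Yp1 with 5846 and 4378 CPM, against 3426 and 2991 CPM. By gene, 3 of the 11 had a log2 change below 0, and the median was 0.67, beside 0.01 over all features. Single markers moved apart within these sums: among follicle genes Fas3 rose 3.25-fold and Yp3 fell 2.89-fold, and the eggshell gene Cp36 had 937.2 and 3081 CPM, against 3581 and 4175 CPM. Among germline genes orb rose 2.69-fold and bru1 2.13-fold. The 1 germline marker with a log2 change below 0 was bam, with 12.8 and 44.8 CPM, against 63.8 and 69.9 CPM (adjusted p = 0.206). The libraries labelled Nup358GLKD differed from each other in muscle sheath RNA: 6 muscle genes summed to 1155 CPM in replicate 1 and 246.3 CPM in replicate 2, against 279.9 and 219.4 CPM in Control. Fat body markers, 4 genes, summed to 38.7 and 56.8 CPM, against 14.9 and 10.6 CPM. Hemocyte markers, also 4, summed to 114.9 and 114.8 CPM, against 76.8 and 86.4 CPM. Most of this was srp alone, with 108.0 and 113.8 CPM, against 76.1 and 85.8 CPM. The 6 testis markers summed to at most 0.198 CPM in any library. The part of these cell types in the results below was not tested.

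Many proteasome subunit genes had less RNA in Nup358GLKD ovaries, with most of the calls in the core and the base and 1 in the lid. Of the 32 genes, 18 fell, 0 rose and 14 did not pass the threshold (edgeR's quasi-likelihood test, Benjamini-Hochberg adjusted p under 0.05 over 10191 features). That is 56.3% of the members, beside 9.03% of all features called lower and 9.59% called higher. Both Nup358GLKD libraries lay below both Control libraries for all 32 members, beside 39.8% of all features, and 30 had an unadjusted p under 0.05, beside 22% of features that were lower at that p. The median log2 change of the members was −0.62, beside 0.01 over all features, whose quartiles were −0.53 and 0.77. Together the 32 genes held 0.51% and 0.605% of all expected counts in the Nup358GLKD libraries, against 0.906% and 0.925% in the Control libraries. As summed CPM this was 5746 ± 499.2 in Nup358GLKD and 8866 ± 103.2 in Control (SD, n = 2 each), so that 64.8% of the Control level was left.

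**Figure D1:**
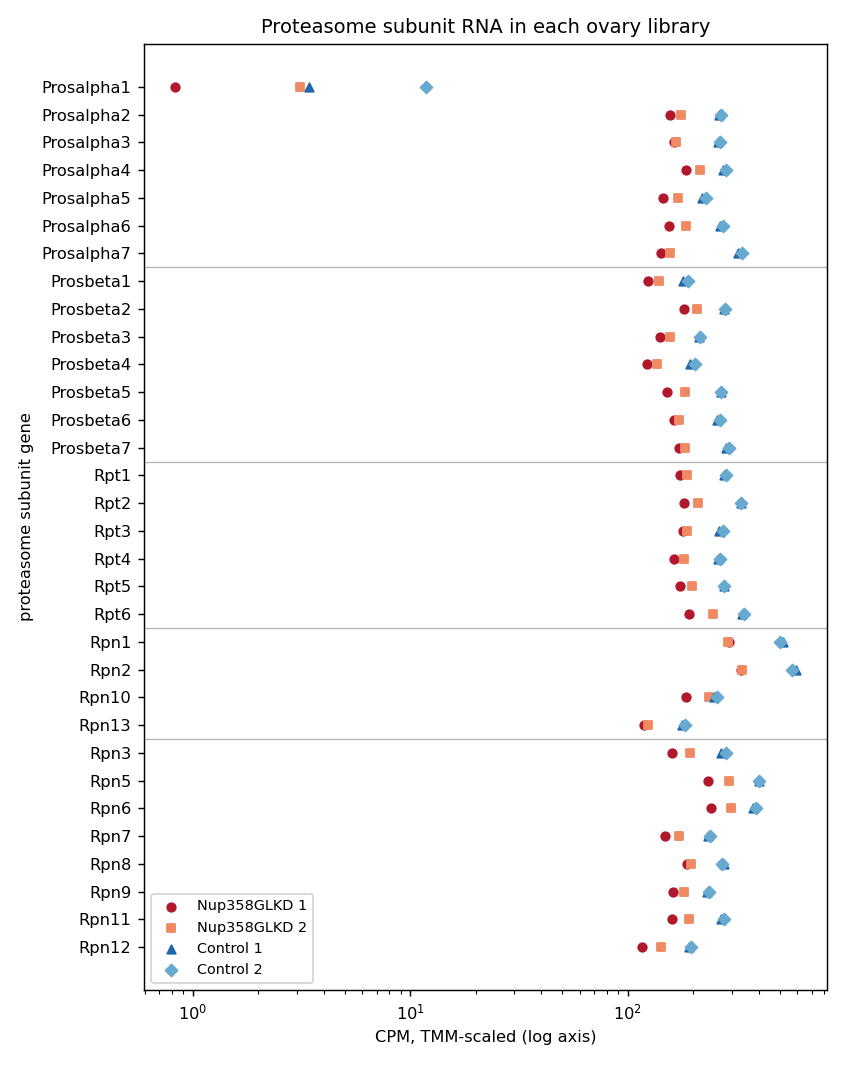
CPM (TMM-scaled, log axis) of each proteasome subunit gene in the 2 Nup358GLKD and 2 Control libraries, each symbol 1 library, grouped from top to bottom as alpha ring, beta ring, base ATPases, other base subunits and lid. In every row both Nup358GLKD symbols lie left of both Control symbols, and Prosalpha1 lies far below the other 31 genes.

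The 18 calls had adjusted p-values between 0.0279 and 0.0476, and 12 of the 14 other members lay between 0.0514 and 0.079, so that the threshold ran through the middle of the group. The number of calls also changed with the library left out, since the spread then comes only from the group that keeps 2 libraries. The SD of the log2 difference between replicates was 0.67 in Nup358GLKD and 0.19 in Control. Without Control replicate 1 or without Control replicate 2, edgeR called 0 members and 0% of features (7 and 4 members were lower at an unadjusted p under 0.05). Without Nup358GLKD replicate 1 and 2 it called 30 and 31 members, beside 33% and 39.7% of all features called lower. The members' median log2 change was −0.67 and −0.63 without a Control library, and −0.52 and −0.72 without a Nup358GLKD library. These counts therefore cannot tell on which libraries the calls rested. DESeq2 called 30 members as lower, beside 19.3% of features. Upper-quartile scaling gave 12 members (7.03% of features), no filter on low counts 14 (5.22%), and a filter at a mean of 5 CPM 11 (8.47%), while 0 passed when transcript rows were tested unsummed (0.0049%, with 30 members at an unadjusted p under 0.05). The members with a value kept a negative log2 change in each of these fits, where in the unsummed fit a member was read from its row with the most counts. Of 35 tested rows of members with several, 6 minor rows of Prosalpha5, Rpt2, Rpn6, Rpn10 and Rpn13 had log2 changes above 0, between 0.04 and 1.40, with adjusted p-values of 0.175 or more. Of the 18 calls, 11 held in every fit made on summed counts of all the libraries: Prosalpha2, Prosalpha3, Prosalpha7, Prosbeta4, Prosbeta6, Prosbeta7, Rpt1, Rpt2, Rpt4, Rpn1 and Rpn2.

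The alpha ring of the core holds the subunits that form the gate of the barrel, and 4 of its 7 genes fell. Of these 4, Prosalpha7 changed most. It stood at 142.1 and 156.0 CPM in the Nup358GLKD libraries, against 321.6 and 335.9 CPM in the Control libraries. The groups were far apart, at 149.0 ± 9.85 CPM and 328.7 ± 10.1 CPM (SD, n = 2 each). Prosalpha7 thus fell 2.21-fold, with a log2 change of −1.14 (SE 0.11, adjusted p = 0.0279). Prosalpha2 had 156.3 and 174.6 CPM, against 261.8 and 266.8 CPM, and fell 1.6-fold. Prosalpha3 had 163.0 and 165.8 CPM in Nup358GLKD, against 258.6 and 264.9 CPM in Control, and Prosalpha6 had 154.9 and 185.1 CPM, against 264.6 and 274.1 CPM. These 3 alpha subunit genes fell by similar amounts, 1.58-fold to 1.6-fold, without overlap between groups. Prosalpha4 had 185.9 and 213.9 CPM in Nup358GLKD, against 272.7 and 281.8 CPM in Control, without overlap, but missed the threshold (log2 change −0.47, SE 0.12, adjusted p = 0.064). Prosalpha5, with 144.9 and 169.2 CPM, against 218.1 and 228.7 CPM, lay close to it (log2 change −0.51, adjusted p = 0.0619).

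Prosalpha1, the remaining alpha subunit gene, has a near-identical copy in the fly genome, Prosalpha1R, and RSEM, which divides reads between like sequences, assigned nearly all of them to the copy. Prosalpha1 alone was given 0.827 and 3.09 CPM in Nup358GLKD, against 3.40 and 11.8 CPM in Control, and these values differed more between replicates of 1 group than between the groups' nearest libraries (log2 change −1.94, SE 0.93, adjusted p = 0.177). The copy had 118.0 and 147.5 CPM, against 219.7 and 220.0 CPM. Summed, the pair had 118.8 and 150.5 CPM in Nup358GLKD and 223.1 and 231.8 CPM in Control, and it fell 1.69-fold (log2 change −0.76, SE 0.16, adjusted p = 0.048). In Control the pair lay among the other alpha genes, and in Nup358GLKD it lay below each of them in both libraries. Taken as 1 gene it was called, and 19 of 32 members then fell, beside 9.04% of features.

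In the beta ring 5 of 7 genes fell. Its 3 proteolytic subunits are Prosbeta1, Prosbeta2 and Prosbeta5, which cut after acidic, basic and hydrophobic residues. Prosbeta5 had 151.5 and 183.2 CPM in Nup358GLKD, against 267.8 and 267.7 CPM in Control, and fell 1.6-fold (log2 change −0.68, SE 0.14, adjusted p = 0.0468). Prosbeta1 had 123.8 and 139.5 CPM, against 179.0 and 188.2 CPM, with a log2 change of −0.48 that missed the threshold (SE 0.12, adjusted p = 0.0591). Prosbeta2 had 181.0 and 208.2 CPM, against 276.4 and 280.6 CPM, and missed it as well at −0.52 (adjusted p = 0.0557). For all 3 the libraries of the groups did not overlap. Of the subunits without a proteolytic site, all 4 fell, and Prosbeta7 had the smallest p of the ring, with 172.0 and 183.4 CPM in Nup358GLKD, against 282.6 and 291.6 CPM in Control (1.62-fold lower, adjusted p = 0.0336). Prosbeta3 had 140.6 and 155.4 CPM, against 211.2 and 214.6 CPM, Prosbeta4 had 121.9 and 136.6 CPM, against 192.8 and 203.6 CPM, and Prosbeta6 had 163.7 and 171.1 CPM, against 255.6 and 265.3 CPM. They fell 1.44-fold, 1.53-fold and 1.56-fold.

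The ATPases of the base, Rpt1 to Rpt6, form the ring that pulls substrates into the core, and 5 of the 6 genes fell. Rpt2 fell most, to 180.2 and 210.6 CPM in Nup358GLKD, against 331.0 and 332.5 CPM in Control (1.7-fold, log2 change −0.76, SE 0.13, adjusted p = 0.0376). Rpt1 had the smallest p with 173.0 and 186.2 CPM, against 275.6 and 283.8 CPM (1.56-fold lower, adjusted p = 0.037). Both genes had close Control libraries and no overlap between groups. Rpt3 had 178.6 and 187.0 CPM in Nup358GLKD, against 262.1 and 272.9 CPM in Control, Rpt4 had 163.5 and 180.3 CPM, against 260.7 and 265.3 CPM, and Rpt5 had 174.4 and 197.8 CPM, against 275.7 and 276.7 CPM. They fell 1.46-fold, 1.53-fold and 1.48-fold. Rpt6 was the exception to the calls: its Nup358GLKD libraries lay apart at 190.7 and 245.1 CPM, against 335.2 and 342.5 CPM in Control (log2 change −0.64, SE 0.16, adjusted p = 0.0639). Its log2 change was as low as that of Rpt1, and its SE was larger.

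The other base subunits varied more among themselves than the ATPases, with an SD of the log2 change of 0.26 over 4 genes, beside 0.075 over 6. Rpn1, a large scaffold protein of the base, had 292.1 and 287.2 CPM in Nup358GLKD, against 518.1 and 498.9 CPM in Control. Rpn2, the other large scaffold, had 330.5 and 333.0 CPM in Nup358GLKD, against 595.4 and 569.8 CPM in Control. Both fell 1.76-fold (adjusted p = 0.0299 and 0.0301). The ubiquitin receptor gene Rpn13 fell 1.49-fold, with 118.8 and 123.7 CPM in Nup358GLKD, against 177.0 and 183.5 CPM in Control (adjusted p = 0.0392). Rpn10, the other ubiquitin receptor, had the largest p of all members, with 184.3 and 235.9 CPM in Nup358GLKD, against 248.8 and 255.8 CPM in Control (log2 change −0.26, SE 0.16, adjusted p = 0.252). Replicate 2 of Nup358GLKD was at 93.5% of its Control mean and replicate 1 at 73.1%.

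The lid holds the deubiquitinase Rpn11, its partner Rpn8 and a horseshoe of scaffold subunits, Rpn3, Rpn5, Rpn6, Rpn7, Rpn9 and Rpn12. Of these 8 genes only Rpn8 passed, although all 8 had an unadjusted p under 0.05. Rpn8 fell 1.43-fold, to 186.3 and 195.2 CPM in Nup358GLKD, against 276.0 and 270.1 CPM in Control (log2 change −0.52, SE 0.10, adjusted p = 0.0432). Rpn11 had 158.7 and 191.8 CPM in Nup358GLKD, against 267.8 and 276.9 CPM in Control (log2 change −0.64, SE 0.14, adjusted p = 0.0514). Its change was larger than that of Rpn8 and so was its SE. Rpn6, with the largest p of the lid, had 241.3 and 298.1 CPM, against 375.9 and 387.6 CPM (log2 change −0.50, SE 0.15, adjusted p = 0.079). Among the other scaffold subunits, Rpn3 had 158.7 and 192.8 CPM in Nup358GLKD, against 268.9 and 281.5 CPM in Control, and Rpn5 had 233.8 and 292.8 CPM, against 402.8 and 398.9 CPM. Rpn7 had 148.3 and 172.3 CPM, against 233.2 and 237.4 CPM, Rpn9 had 161.4 and 182.0 CPM, against 231.6 and 235.5 CPM, and Rpn12 had 115.9 and 141.6 CPM, against 191.1 and 194.1 CPM. The groups did not overlap for any of these 5, whose log2 changes lay between −0.44 and −0.65 with adjusted p-values between 0.0516 and 0.064. The 1 call of the lid, Rpn8, was lost with upper-quartile scaling and with the filter at 5 CPM. Other settings called more of the lid. DESeq2 called all 8 genes as lower, beside 19.3% of features. With limma-voom and with robust=FALSE 4 were called, beside 1139 and 1033 of the 10191 features.

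**Figure D2:**
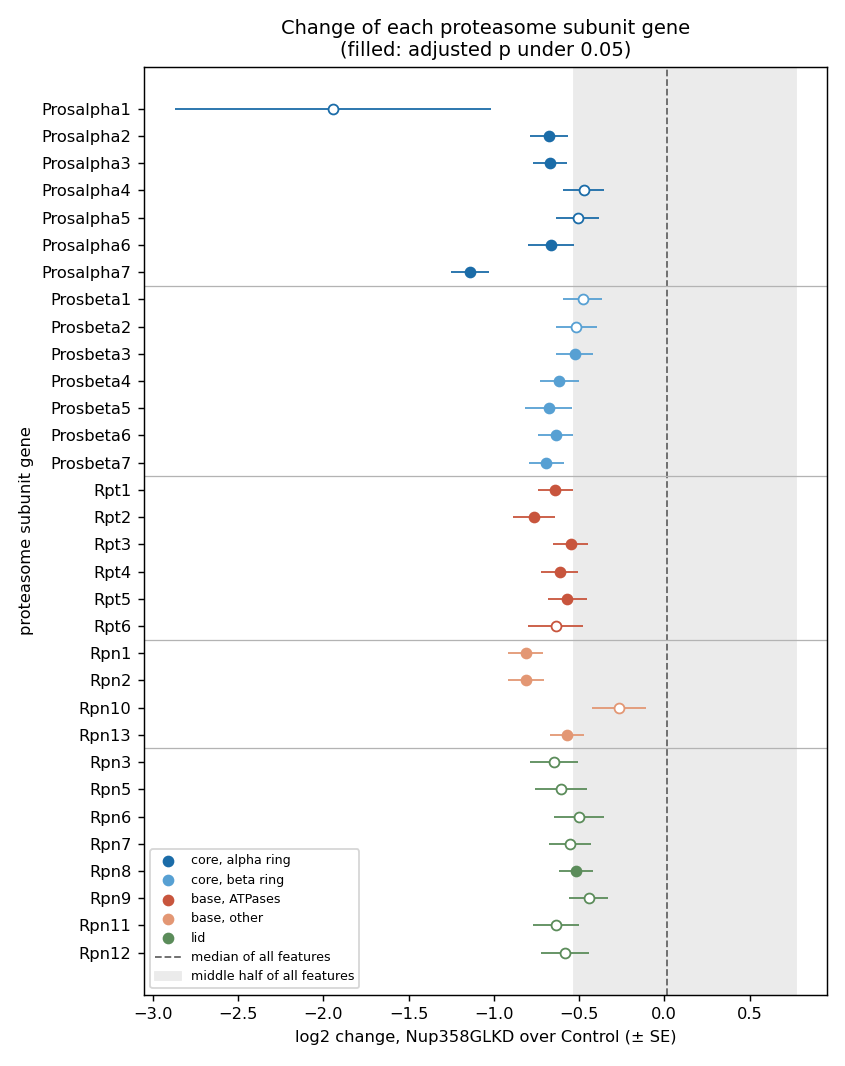
Fitted log2 change (Nup358GLKD over Control) of each proteasome subunit gene with its SE, filled where the adjusted p is under 0.05 and open where it is not, coloured by part of the complex, with the median (dashed) and the quartiles (edges of the grey band) of all 10191 features. All 32 points lie below 0, with Prosalpha1 and Prosalpha7 lowest, Rpn10 highest, and a single filled point in the lid.

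Set side by side, core, base and lid had similar changes and different numbers of calls. The median log2 change was −0.65 in the core (9 of 14 called), −0.63 in the base (8 of 10) and −0.57 in the lid (1 of 8). Summed over their genes, the core held 2124 ± 171.6 CPM in Nup358GLKD and 3321 ± 77.2 CPM in Control, the base 2087 ± 142.0 and 3281 ± 1.5 CPM, and the lid 1536 ± 185.6 and 2265 ± 24.4 CPM (SD, n = 2 each). The levels left were 63.9%, 63.6% and 67.8% of Control. The lid differed more between the Nup358GLKD libraries, with 1404 and 1667 CPM, than the base, with 1986 and 2187 CPM. The lid-to-base ratio of summed CPM was 0.707 and 0.762 in Nup358GLKD, against 0.685 and 0.695 in Control, and the base-to-core ratio was 0.992 and 0.974, against 1.0 and 0.972. The first ratio did not overlap between groups and the second did. Whether the parts differ in their change was not tested, and 2 libraries against 2 cannot give an exact two-sided permutation p below 0.333.

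The Nup358GLKD libraries differed from each other in the same direction for nearly every subunit. In 31 of 32 members replicate 1 was below replicate 2, beside 50.7% of all features, and Rpn1 was the exception. Without Prosalpha1, the members stood at a median of 62.1% of their Control mean in replicate 1 (43.2% to 73.1%) and 70.1% in replicate 2 (47.5% to 93.5%). Replicate 1 was the library with 1155 CPM of muscle sheath RNA, and replicate 2 the one with less Nup358 RNA. Without replicate 1 the median log2 change of the members was −0.52, beside −0.0039 over all features, and without replicate 2 it was −0.72, beside −0.0083, so that the lower level was present in each library taken alone.

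**Figure D3:**
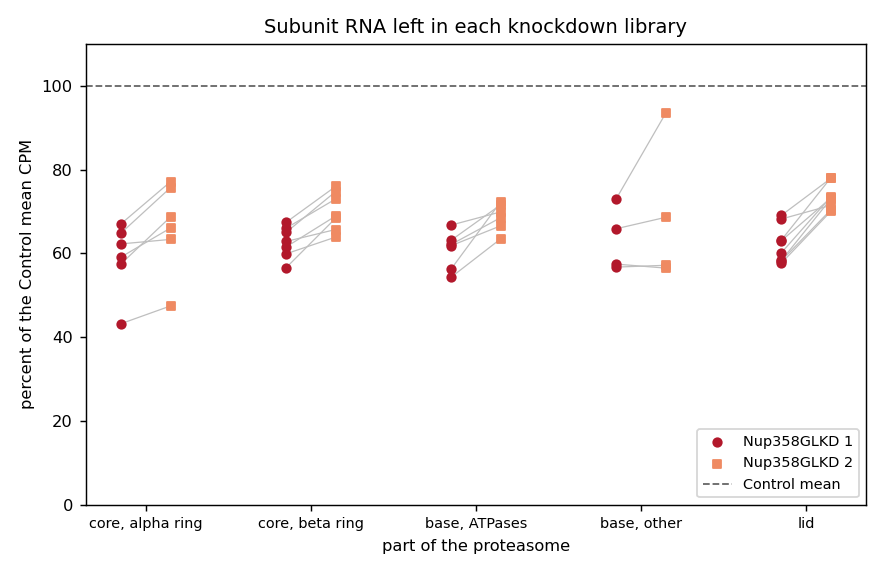
CPM of each subunit gene other than Prosalpha1 as a percent of its own Control mean, in Nup358GLKD replicate 1 (circles) and replicate 2 (squares), by part of the complex, with grey lines joining the values of 1 gene. All points lie below the dashed line at 100%, and replicate 1 is the lower point of every pair except that of Rpn1.

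The RNA levels of the subunit genes lay in a narrow range. Per kilobase of annotated exon, the 31 members other than Prosalpha1 had between 72.5 and 188.2 CPM in Nup358GLKD and between 107.8 and 336.8 CPM in Control, a range of 2.6-fold and 3.12-fold. The quartiles over all tested genes with a length were 2.0 and 34.3 CPM per kilobase in Nup358GLKD and 1.23 and 38.2 in Control. By this measure the core genes were higher than the others, with a median level of 161.9 CPM per kilobase in Nup358GLKD and 243.2 in Control, beside 117.5 and 174.8 for the base and 126.9 and 185.9 for the lid. In Control the gene with the highest level per kilobase was Prosalpha7 (336.8 CPM per kilobase) and in Nup358GLKD it was Prosbeta2 (188.2). Rpn13 was lowest in both groups. Prosalpha7 stood at 152.7 CPM per kilobase in Nup358GLKD, below Prosalpha2, Prosalpha3, Prosalpha4, Prosalpha5 and Prosalpha6, which it exceeded in Control.

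When each library was centred on the median of the same 31 genes, 29 genes differed from their Control position by less than 0.2 on the log2 scale in the mean of the Nup358GLKD libraries. The exceptions by that mean were Prosalpha7, at −0.48 and −0.53 in Nup358GLKD replicates 1 and 2, and Rpn10, at 0.27 and 0.45. Rpn1, at −0.07 and −0.28, and Rpn2, at −0.09 and −0.26, passed 0.2 in replicate 2 alone. The Control replicates lay at −0.018 and 0.018 for Prosalpha7 and at −0.0062 and 0.0062 for Rpn10. The ratio of Prosalpha7 to Rpn10 in CPM was 0.771 and 0.661 in the Nup358GLKD libraries, against 1.29 and 1.31 in the Control libraries. These 2 genes were picked out after their values were seen, so this is a description with no test.

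**Figure D4:**
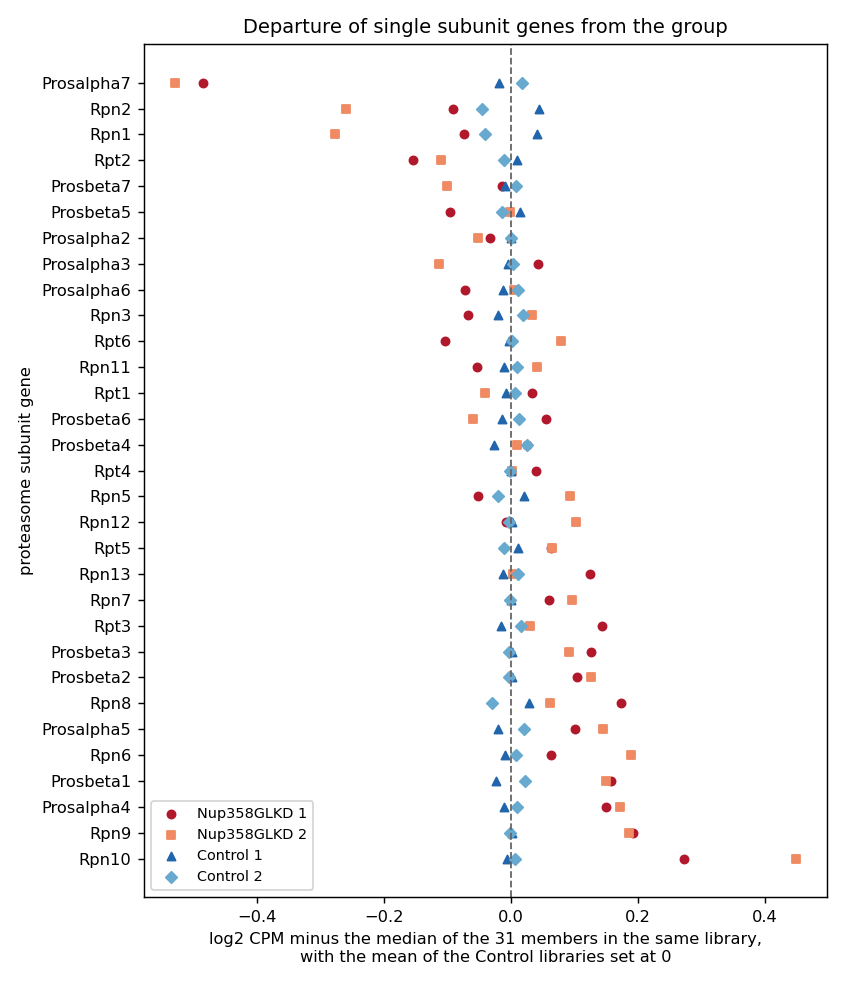
Position of 31 subunit genes relative to the group in each library: log2 CPM minus the median of the 31 genes in that library, shifted so that the mean of the Control libraries is 0 for each gene, ordered by the Nup358GLKD mean. Both Nup358GLKD symbols of Prosalpha7 lie near −0.5 and those of Rpn10 at 0.27 and 0.45, while the Control symbols stay near 0.

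The subunit genes are spread over 5 chromosome arms, with 10 on 2R, 9 on 3R, 5 on 3L and 4 each on 2L and X. The median log2 change was similar on each of them, from −0.58 on 3L and X to −0.64 on 2L. Exons of 13 members overlap those of a neighbour on the opposite strand in the BDGP6 annotation, by 1 to 182 bases, and without strand information their reads cannot be told apart there. Of these 14 neighbours, both Nup358GLKD libraries lay below both Control libraries for 8, beside 39.8% of all features, and above them for 3. CG10365 beside Rpn9 was the 1 neighbour with an adjusted p under 0.05, and it rose, with 62.7 and 64.0 CPM in Nup358GLKD, against 38.4 and 38.5 CPM in Control (adjusted p = 0.0343).

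Of the 32 subunit genes, 15 are listed with more than 1 row, and RSEM's division of reads between rows is an estimate. Only Prosalpha6 and Prosbeta4 are described here. In Prosalpha6 the main transcript, NM_001298869, had 5131 and 7666 expected counts in Nup358GLKD, against 13222 and 12375 in Control, whereas the other, NM_078808, had 3484 and 3473, against 3356 and 4484. The share of NM_078808 was 40.4% and 31.2% in Nup358GLKD and 20.2% and 26.6% in Control. By this estimate the lower summed level of this gene lay mostly in the main transcript. The groups did not overlap for that transcript and did for NM_078808. Neither passed when all rows were tested unsummed (log2 change −0.97 and −0.13, adjusted p = 0.0756 and 0.661). In Prosbeta4 the main transcript, NM_135960, had 4906 and 5673 expected counts, against 9871 and 9485, and the other, NM_001273582, had 1878 and 2546, against 2205 and 3037 (log2 change −0.83 and −0.21, adjusted p = 0.0593 and 0.569). The difference in transcript shares between groups was not tested.

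Related genes were read in 6 lists, which are set beside the 9.03% of all features called lower. A list of paralogs of the subunits held 15 genes, 11 of which had 5 or fewer counts in every library; 4 were tested and 1, the copy Prosalpha1R described above, fell, while the other 3 stayed below 1 CPM. A list of 9 assembly factors, activators and associated proteins had 8 members that could be matched, of which 2 fell, 0 rose and 6 did not pass, with a median log2 change of −0.38. Sem1, a small further subunit of the lid, had 69.2 and 82.9 CPM in Nup358GLKD, against 119.8 and 123.2 CPM in Control, and fell 1.6-fold (adjusted p = 0.0468, and 0.0514 with upper-quartile scaling). The F-box gene ntc, known in flies for activating caspases in sperm maturation together with the proteasome regulator PI31, fell 3.05-fold to 9.46 and 13.9 CPM, against 35.2 and 36.3 CPM (log2 change −1.61, SE 0.24, adjusted p = 0.0339). REG, which encodes an alternative cap of the core in the nucleus, was the 1 gene of this list above Control in both libraries, with 392.4 and 351.2 CPM in Nup358GLKD, against 299.0 and 303.1 CPM in Control (log2 change 0.30, SE 0.11, adjusted p = 0.117). It is named after its values were seen, as is Uch-L5, the deubiquitinase that binds Rpn13, with 99.6 and 137.2 CPM, against 163.6 and 172.5 CPM (adjusted p = 0.121).

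The transcription factor cnc is the fly relative of the mammalian factors that raise proteasome genes when proteolysis is impaired. In Nup358GLKD it had 521.4 and 412.7 CPM, against 323.8 and 299.4 CPM in Control, without overlap, and it missed the threshold (log2 change 0.58, SE 0.16, adjusted p = 0.072, and 0.0197 in DESeq2). Keap1, its cytoplasmic repressor, averaged 23.7 ± 6.74 CPM in Nup358GLKD and 12.9 ± 1.52 CPM in Control (SD, n = 2 each). Its log2 change was 0.87 (adjusted p = 0.0828, and 0.0186 in DESeq2), and it is named after its values were seen. The cnc partner maf-S had 25.8 and 29.9 CPM in Nup358GLKD, against 34.3 and 34.6 CPM in Control (log2 change −0.30, adjusted p = 0.163). Of the 5 genes of the list, which also holds Pngl and rngo, 0 rose and 0 fell in edgeR.

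Of 15 genes that make, attach or present ubiquitin, 3 fell, 0 rose and 12 did not pass, with a median log2 change of −0.23. They were TER94, the ATPase that extracts ubiquitin-marked proteins from membranes and complexes, and Npl4 and p47, which encode cofactors used by this ATPase in different complexes. Ufd1, the partner of Npl4, and Plap, a further cofactor, did not pass (log2 change −0.42 and −0.50, adjusted p = 0.0907 and 0.0821). TER94 had 914.3 and 875.3 CPM in Nup358GLKD, against 1382 and 1382 CPM in Control, and fell 1.54-fold (adjusted p = 0.042, and 0.0658 with upper-quartile scaling). Npl4 fell 1.63-fold to 105.8 and 125.2 CPM, against 187.3 and 189.5 CPM (adjusted p = 0.0414), and p47 fell to 135.2 and 109.4 CPM, against 235.0 and 253.1 CPM (log2 change −0.997, SE 0.15, adjusted p = 0.0343). The ubiquitin fusion genes RpL40 and RpS27A, which also encode ribosomal proteins, had means above Control without passing and are named after their values were seen (log2 change 0.65 and 0.55, adjusted p = 0.0643 and 0.0813, and 0.0071 and 0.0189 in DESeq2).

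As other multi-subunit complexes of the cytosol, the COP9 signalosome, whose subunits are related to those of the lid, and the CCT chaperonin were read from the same fit. Of 9 signalosome genes 8 were tested, and 0 fell and 0 rose, with a median log2 change of −0.23; CSN5, the relative of Rpn11, had 68.5 and 73.6 CPM in Nup358GLKD, against 92.1 and 94.3 CPM in Control (log2 change −0.39, SE 0.11, adjusted p = 0.0712). Both Nup358GLKD libraries lay below both Control libraries for 6 of the 8, beside 39.8% of all features. Of 8 chaperonin genes 0 fell and 0 rose, with a median of −0.02, and CCT2 had the smallest p, with 1079 and 1090 CPM, against 789.4 and 820.5 CPM (log2 change 0.43, SE 0.11, adjusted p = 0.0674, and 0.0105 in DESeq2). The differences between these lists and the proteasome were not tested.

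**Figure D5:**
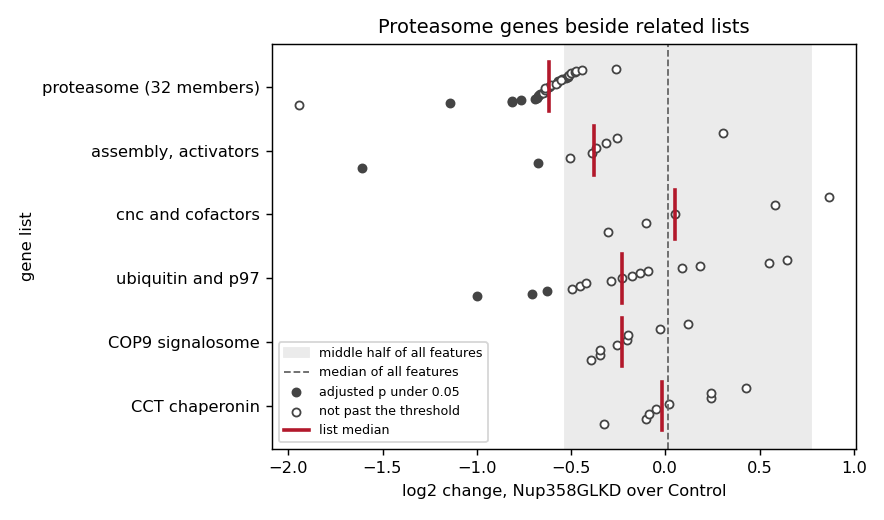
Fitted log2 change (Nup358GLKD over Control) of the 32 proteasome genes and of the tested genes of 5 of the 6 related lists (the paralogs, with 4 tested genes and a median of −0.62, are not drawn), each point 1 gene, filled where the adjusted p is under 0.05, with list medians in red, and the median and quartiles of all features as a dashed line and a grey band. The proteasome median lies at −0.62, left of the grey band between the quartiles, and the medians of the other lists drawn lie inside it, from −0.38 to 0.05.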

How the data were processed

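The authors deposited 1 table of expected counts per transcript. Its header names the unit, and Bowtie2, RSEM and the build dm3 stand in the submitters' processing notes; the sources used here give no versions, annotation release or strand setting. No scaling for depth or length was applied to them.

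The 34437 RefSeq rows were joined to genes by accession with a RefSeq table of genes (Release 6; 34035 rows matched 16356 genes, numbered copies of an accession included), summed per gene and rounded. The 402 unmatched rows and the 268 transposon and piRNA cluster rows were kept as they were. The test was edgeR 4.0.16 (R 4.3.3), quasi-likelihood F-test with robust=TRUE and legacy=FALSE, with TMM factors. Features passed filterByExpr (at least 10 counts, 15 in total), and p-values were adjusted by Benjamini-Hochberg over the 10191 that did. CPM were TMM-scaled. Each SE was derived from its F statistic, and a prior count of 0.125 entered the fitted log2 changes. Counts at this depth leave the spread between libraries, not counting error, as the limit.

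Levels per kilobase divide CPM by the union of exons in the Ensembl BDGP6 annotation, which is not the build of the files and was used for lengths and exon overlaps only. The members and all lists were chosen with earlier results of these data known. In the lists Ufd1, Plap, alien and nanos stand for older names, and 1 name, Ecm29, was not matched. Named genes were the members, Nup358 and, per related list, up to 3 passing genes with the smallest p or else the 1 with the smallest p. Alternatives were DESeq2 1.42.0, limma 3.58.1 (voom), 3 other scalings (RLE, upper quartile, total counts), the settings legacy=TRUE and robust=FALSE, omitting the filter, a filter at 5 CPM on average, a replicate block, leaving out each library, unsummed rows, and Prosalpha1 summed with its copy. The replicates were distinct libraries: the chi-square of their counts, per degree of freedom, was 392 within Nup358GLKD and 16.9 within Control. The code was tested on simulated data.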

Additional observations from a re-analysis of the deposited data

How the results depend on the processing

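Every proteasome member with a value kept a log2 change below 0 under each alternative run (by its row with the most counts where rows were unsummed), and the number called depended on the setting. DESeq2 called 30 members, with 1964 features lower and 1916 higher and 5 genes of the related lists higher. With the filter at 5 CPM, 11 members and 607 features were lower and 2 related genes, with median log2 changes of −0.5217 (alpha), −0.4708 (beta), −0.4803 (base) and −0.4228 (lid) and ratios of summed CPM of 0.6847, 0.7312, 0.7037 and 0.7494. Upper-quartile scaling left 3 related genes lower, medians of −0.5487 (alpha), −0.4953 (beta) and −0.505 (base), and ratios of 0.6713 (alpha), 0.7188 (beta), 0.6917 (base) and 0.7369 (lid). It raised the median of all features to 0.14, and the members lay 0.63 below that median, as in the reported fit. The distance changed with the features kept. With the filter at 5 CPM the median of the 31 members with a value was −0.47, beside −0.03 over all features. With no filter it was −0.67 for the members, beside 0.17. Total-count scaling gave −0.7642 (alpha), −0.7079 (beta) and −0.7156 (base), with ratios of 0.6203 (beta) and 0.5968 (base). Unsummed rows gave 0 members, 1 feature lower and 0 higher, 0 related genes and a beta median of −0.6992, with 20393 features tested. TER94 and p47 were lost at 5 CPM (adjusted p = 0.0751 and 0.0508). Leaving out each library gave 0 to 31 members lower, 0 to 4218 features lower, 0 to 3789 higher, and 0 to 29 related genes lower and 0 to 8 higher. The medians then ran from −0.7863 to −0.5997 (alpha), −0.6982 to −0.5383 (beta), −0.718 to −0.5455 (base) and −0.7277 to −0.4527 (lid), and the ratios from 0.5694 to 0.6534, 0.6124 to 0.6967, 0.5936 to 0.6659 and 0.608 to 0.7352. With a library left out, 1 group has a single sample, assumed to vary like the other group. The cause of these changes was not tested. At these depths, spread between replicates limits the precision.

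The replicate numbers are shared between the groups but only as numbers: deviations of same-numbered libraries correlated at 0.23 over 2 pairs, and no label ties them. With the replicate block, 16 members were lower (13 of the 18), beside 11.1% of features, and TER94 was not called (adjusted p = 0.0712), while Nup358 was (adjusted p = 0.0289).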
